A study of Mus musculus and Ictidomys tridecemlineatus with 36 samples.

Results

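The Thrb locus was examined for histone marks and photoreceptor transcription factors in the neonatal retina of the mouse and of the thirteen-lined ground squirrel (13LGS). In the mouse, 126 peaks from 5 lists overlapped Thrb (ENSMUSG00000021779.17, GRCm38 chr14:17660261-18038090, plus strand) or the 250 kb on each side, of 246656 peaks in all. In 13LGS, 46 peaks overlapped 55 listed Thrb elements on the Itri2 scaffold, of 286248 peaks. The members were chosen by position, and the attention given to acetylation inside the gene was selected on the measured H3K27ac peaks themselves, so the number of these peaks and their lack of a listed element are given as a description with no test. The study took P5 13LGS retina, with 2 individuals per pool, and P2 mouse retina, with 3 individuals per pool, and the labels name no strain or treatment. Nuclei were profiled by CUT&RUN, in which an antibody directs a nuclease to cut out the DNA beneath a mark or a factor. Mouse H3K27ac, H3K4me1, H3K4me3 and IgG had 2 libraries each, Neurod1 had 4 and Otx2 had 8. The 13LGS histone marks had 1 library each, IgG had 3, Neurod1 had 4 and Otx2 had 6. Otx2 was profiled with an antibody from R&D Systems and another from Atlas Antibodies.

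Each target in each species had 1 deposited list of peaks called jointly over its libraries, so every peak below has a single fold enrichment over IgG and a single −log10 q, and no replicate spread can be given. Sequencing depth is unknown, and a site without a peak is a site where none was called at this depth. The retina was profiled whole, so fewer cells with a mark and less of the mark per cell cannot be told apart. The mouse lists held 14069 H3K4me3, 62930 H3K27ac, 135798 H3K4me1, 29115 Otx2 and 4744 Neurod1 peaks. The tissue was checked on marker genes: an H3K4me3 peak lay within 1 kb of an annotated start for 7 of 8 retinal genes, all but Rcvrn, and for 0 of 6 genes of other tissues (Alb, Myod1, Cd3e, Krt5, Gata1 and Ttn). The same 7 retinal genes had H3K27ac there.

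Thrb encodes thyroid hormone receptor beta, a nuclear receptor that binds DNA, often with a retinoid X receptor, and switches target genes according to the hormone it holds. The gene has an upstream promoter, from which the TRβ1 form is made, and an internal start for TRβ2, the form that cone photoreceptors use to set opsin identity. H3K4me3 marks promoters, H3K4me1 marks enhancers and the flanks of promoters, and H3K27ac is found at the active ones. Otx2 and Neurod1 are transcription factors of photoreceptor precursors, and their usual sites hold TAATCC and CAGATG.

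The curated RefSeq starts lay at 17660960 (upstream, TRβ1) and 17981644 (internal, TRβ2), 321 kb apart, so the internal start fell 84.9% of the gene length downstream. The mouse sequences on which the account turns are shown 5′ to 3′ on the plus strand of GRCm38, the stretches before the starts from RefSeq's promoter table. Capitals mark TAATCC, its first 5 letters TAATC, or CAGATG, on either strand. The shorter TAATC was added after the sequence before the internal start had been read. The first sequence, chr14:17660902-17660931, holds the single match before the curated RefSeq upstream start. It lies inside exon 1 of the GENCODE transcript Thrb-201, which starts further upstream. The second is chr14:17981394-17981528, which ends where the GENCODE transcript Thrb-202 begins. The third is chr14:17990269-17990469, centred on the Neurod1 summit in the gene. The last is chr14:17733630-17733750, centred on the Otx2 summit within the strongest H3K27ac peak.
Upstream start: cgtgacgcggcgGGATTAactttgcatggc
Internal start: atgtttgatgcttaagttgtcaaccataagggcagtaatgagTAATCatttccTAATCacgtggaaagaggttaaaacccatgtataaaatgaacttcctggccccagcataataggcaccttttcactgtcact
Otx2 and Neurod1 peak: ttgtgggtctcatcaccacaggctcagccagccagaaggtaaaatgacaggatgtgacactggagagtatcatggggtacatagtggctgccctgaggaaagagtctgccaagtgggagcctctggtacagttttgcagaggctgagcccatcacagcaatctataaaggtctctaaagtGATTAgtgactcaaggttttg
Otx2 in H3K27ac: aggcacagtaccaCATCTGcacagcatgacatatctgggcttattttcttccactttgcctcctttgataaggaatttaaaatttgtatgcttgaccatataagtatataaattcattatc

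Of the 250 bases before each of 32851 RefSeq starts, 6.25% held TAATCC and 19.8% held TAATC. The upstream Thrb window held TAATCC on the minus strand at 17660914-17660919. That match precedes the curated RefSeq start but falls within exon 1 of Thrb-201 (17660896-17661024), so by that annotation it is transcribed sequence. The internal window held TAATC at 17981436-17981440 and at 17981447-17981451 and no TAATCC.

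The upstream promoter carried H3K4me3, H3K4me1 and Otx2 but no H3K27ac peak. Its H3K4me3 peak, chr14:17659190-17661776, was 14.3-fold over IgG and was the only H3K4me3 peak in the gene, close to the middle of its list, of which 47.4% had at least that fold. Otx2 there reached 7.29-fold (chr14:17659730-17661554), with a smaller 3.32-fold peak just before it (chr14:17659195-17659451), and H3K4me1 reached 5.49-fold. The nearest H3K27ac peak to the upstream start lay 5913 bp away, before the gene, and was 3.09-fold. Genome-wide, 29.0% of mouse H3K4me3 peaks overlapped H3K27ac, so a promoter without it was the more common kind in these lists.

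The internal start had a different set of marks. It lay inside a strong H3K4me1 peak, chr14:17981491-17985983, at 18.4-fold, a level that 2.15% of that list reached. No H3K4me3 peak was called there, the nearest being 256235 bp away, in the 3′ flank. H3K27ac began 1605 bp downstream of the start, with small peaks of 3.5-fold, 3.79-fold and 3.42-fold between 17983249 and 17986923. Of 9 distinct annotated internal starts, GENCODE and RefSeq together, 0 had H3K4me3 within 1 kb, 3 had H3K4me1 and 2 had H3K27ac. Those 2 were predicted RefSeq starts at 17780432 (644 bp from a 3.63-fold peak) and 17918360 (409 bp from a 3.47-fold peak).

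The strongest Otx2 peak of the gene lay in the intron that follows the first exon of TRβ2. It covered chr14:17989990-17991202, 8.35 kb past the internal start, at 11.9-fold, ranking 401 of 29115 in its list. The single Neurod1 peak of the 250 kb window, chr14:17990229-17990529, fell inside it at 7.03-fold, ranking 525 of 4744. H3K4me1 covered the same site at 8.62-fold (chr14:17988335-17991569), and the nearest H3K27ac peak was 3067 bp from the Otx2 peak. In the mouse lists, 59.9% of Otx2 peaks that overlapped Neurod1 also overlapped H3K27ac, and this one did not. It also overlapped no listed Thrb element.

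The remaining Otx2 peaks in the gene were weaker. That in the strongest H3K27ac peak (chr14:17733592-17734513) was 3.81-fold, that at chr14:17967333-17967623 was 3.33-fold and also lay on H3K27ac, and that at chr14:17972046-17972248 was 2.88-fold and lay on a listed element. TAATCC was in the 201 bases around the summit of 0 of the 5 Otx2 peaks in the gene, beside 9.12% of all mouse Otx2 peaks. CAGATG was not in the 201 bases around the Neurod1 summit shown above, beside 29.8% of all mouse Neurod1 peaks that hold it. Over the whole peak, TAATCC was in 2 of the 5 Otx2 peaks, beside 28.6% of all Otx2 peaks. These were the peak at the upstream promoter, with the match 132 bp from its summit, and the strongest, with the match 240 bp away. They were 1825 and 1213 bp wide, beside a median of 561 bp for the list. A wider peak has more room for a match, so the whole-peak shares are not on a like footing. The Neurod1 peak held CAGATG 151 bp from its summit, beside 58.2% of all Neurod1 peaks. These are matches of letters and say nothing of the factors' binding.

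**Figure D1:**
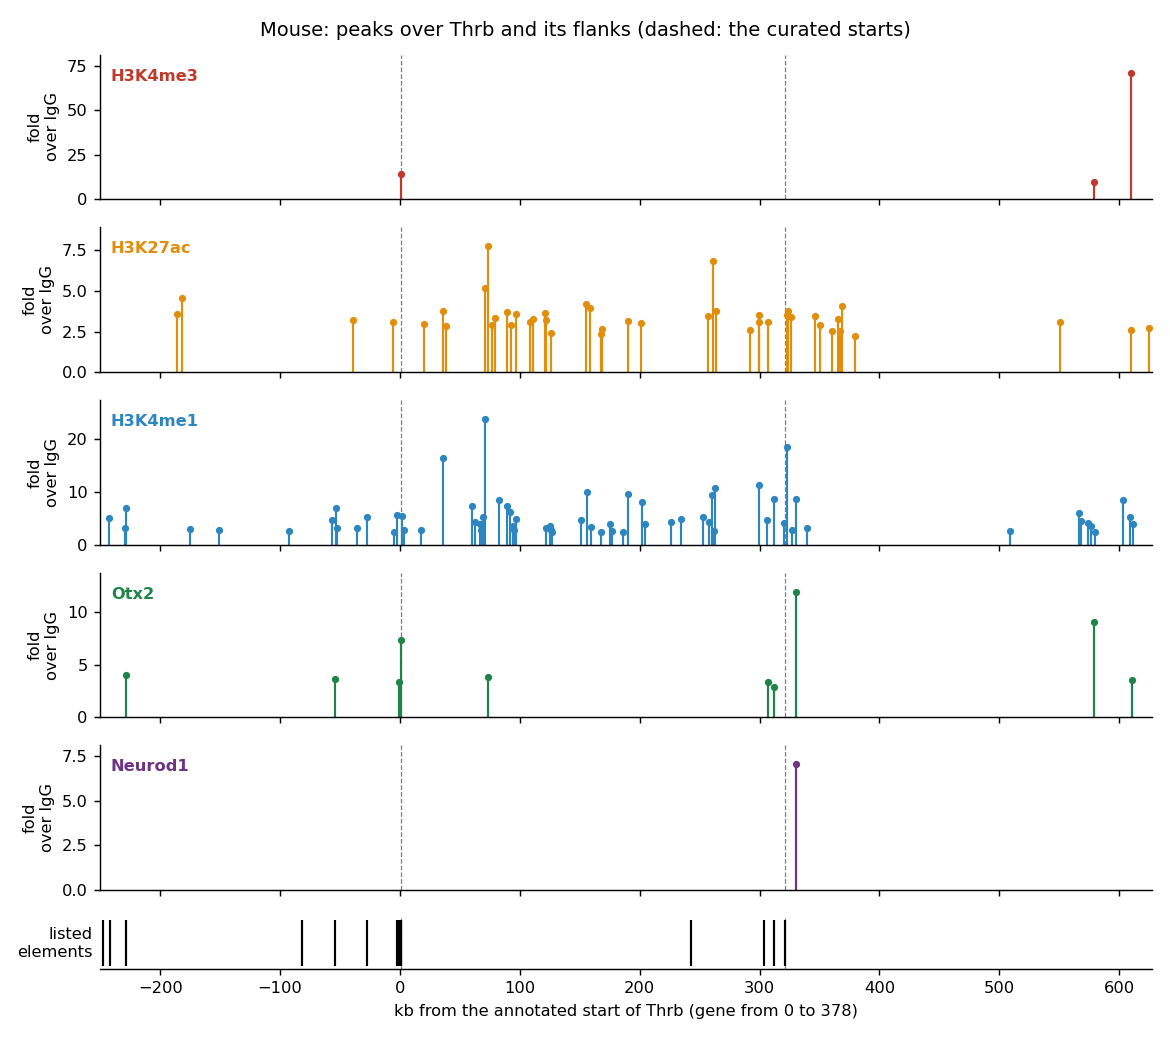
Peaks of the 5 mouse lists over Thrb and 250 kb on each side, with the summit's distance from the annotated gene start (kb) on the x axis and the fold over IgG on the y axis, 1 line per peak from a pooled list and no error. H3K27ac and H3K4me1 spread over the gene body, H3K4me3 stands at the upstream start at 14.3-fold, and the 11.9-fold Otx2 peak shares its place with the Neurod1 peak; the bottom row marks the 15 listed elements.

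Inside mouse Thrb, 37 H3K27ac peaks covered 7.16% of the gene, and 36 of them overlapped no annotated Thrb exon. Most were small: their fold ran from 2.36 to 7.76 with a median of 3.30, beside 3.36 for all 62930 peaks, and their width ran from 214 to 3355 bp with a median of 410 bp, beside 432 bp. A −log10 q of 5 or more was reached by 8 of the 37, beside 32.6% of the list. At least 1 kb was covered by 11 of them, beside 17.3% of the list. The fold exceeded 5 in 3 peaks, and the next highest was 4.17.

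The 3 strongest acetylated peaks lay in introns 1 and 2, well away from both curated starts. The highest, chr14:17732554-17735908, was 7.76-fold and 3355 bp wide, the widest in the gene, and its neighbour chr14:17730042-17732318 was 5.18-fold and 2277 bp wide. Both stood about 70 kb into intron 1 of Thrb-201, a coding transcript from the upstream promoter, beneath the strongest H3K4me1 peak of the gene, chr14:17729759-17737534, which was 23.8-fold and 7776 bp wide and ranked 931 of 135798. The second highest, chr14:17920266-17921680 in intron 2, was 6.85-fold, with peaks of 3.47-fold and 3.79-fold on either side of it and H3K4me1 of 9.32-fold over it. In their own list, 1.84% of peaks had at least the fold of the highest, 3.07% that of the second and 9.07% that of the third.

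The next in strength were chr14:17815602-17816976 in intron 1, at 4.17-fold, and chr14:18027896-18028964 in intron 8, at 4.07-fold. The third widest, chr14:17849057-17851015 in intron 2, covered 1959 bp at 3.17-fold. Intron 1 held 17 of the 37 peaks and makes up 43.9% of the gene, so the peaks were not crowded into it. When the gene was divided into 10 equal parts, each held between 2 and 7 peaks. The longest stretch without one was 55.4 kb, in intron 2, between 17861499 and 17916851. When peaks within 5 kb of each other were joined, a distance chosen after the positions were seen, the 37 formed 17 groups.

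None of the 37 peaks overlapped a listed Thrb element. The list gives 15 mouse elements of 501 bp, of which 7 overlap the gene and cover 0.864% of it. The other 3 genes of the list held 4 H3K27ac peaks in all, of which 3 overlapped none of their own elements, too few to give a usual share. The elements are accessible regions from single-cell data; those away from the promoter were kept by the study where accessibility tracked Thrb expression. A peak outside the list is therefore not shown to lie in closed chromatin. The distance to the nearest element ran from 1.41 to 120 kb with a median of 45.4 kb, and 31 of the 37 were over 10 kb from every element. The 3 nearest were chr14:17983249-17983501 (1.41 kb, 3.5-fold) and chr14:17983757-17984084 (1.92 kb, 3.79-fold), both past the element on the TRβ2 start, and chr14:17967372-17967647 (3.26 kb, 3.09-fold).

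The other targets matched the elements unevenly. The 1 H3K4me3 peak in the gene overlapped an element, as did 2 of 5 Otx2 peaks, 3 of 45 H3K4me1 peaks and 0 of 1 Neurod1 peak. The element on the TRβ2 start (chr14:17981342-17981842) carried H3K4me1, and the element at chr14:17972083-17972583 carried H3K4me1 at 8.67-fold and Otx2 at 2.88-fold.

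**Figure D2:**
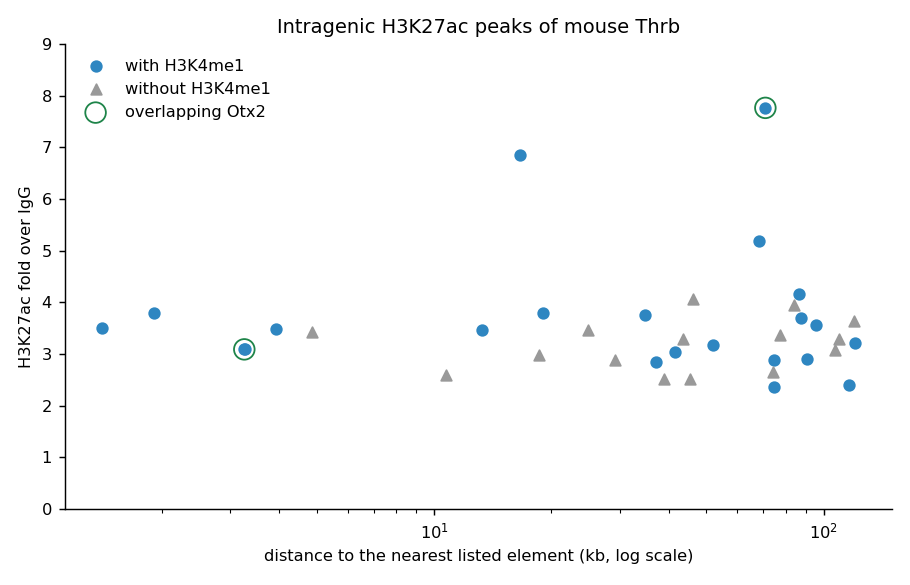
Fold over IgG of the 37 intragenic H3K27ac peaks of mouse Thrb (y axis) against the distance to the nearest listed element in kb on a log axis (x axis), with circles for peaks that overlap H3K4me1, triangles for those that do not and rings for those that overlap Otx2. The 7.76-fold and 5.18-fold peaks lie about 70 kb from any element, and the nearest peak is 1.41 kb away at 3.5-fold.

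H3K4me1, the mark shared by active and poised enhancers, overlapped 22 of the 37 acetylated peaks (59.5%), close to the 58.9% of all mouse H3K27ac peaks. Otx2 overlapped 2 of 37, beside 16.6%, Neurod1 0 of 37, beside 3.90%, and H3K4me3 0 of 37, beside 7.57%. No other list overlapped 15 of the 37, beside 39.3% of all H3K27ac peaks. Among those 8 with a −log10 q of 5 or more, 7 overlapped H3K4me1. The share over all mouse H3K27ac peaks of that strength was not computed, so this count has no like figure beside it. Past the internal start, 2 of 9 acetylated peaks overlapped H3K4me1, and the last 6 in the gene lay beyond its final H3K4me1 peak. In the reverse direction, 17 of the 45 H3K4me1 peaks in Thrb overlapped H3K27ac, beside 21.5% of all H3K4me1 peaks. The annotated antisense gene Gm48321 runs through the 3′ part of Thrb, 10 of the 37 peaks overlapped it, and peaks there cannot be assigned to either gene. In the 201 bases around their summits, 2 of the 37 held TAATCC, beside 6.52% of all H3K27ac peaks, and 11 held CAGATG, beside 17.0%.

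Acetylation was denser in the gene than beside it. Thrb had 9.79 H3K27ac peaks per 100 kb, against 1.6 in the 250 kb before it, 1.6 in the 250 kb after it and 2.31 over the genome. For H3K4me1 the gene had 11.9 per 100 kb, against 5.6 before it, 3.6 after it and 4.98 over the genome. The 8 flanking H3K27ac peaks ran from 2.22-fold to 4.56-fold. Of 14 annotated genes in the window 5 are protein-coding: Thrb, Nr1d2 (a circadian nuclear receptor), Rpl15 (a ribosomal protein), Nkiras1 and Ube2e1. The H3K4me3 peaks of the 3′ flank lay at the start of Nr1d2 (9.91-fold) and in the Rpl15 and Nkiras1 region (70.7-fold), each with Otx2, at 9.07-fold and 3.54-fold. At the 5′ edge of the window the outermost peak inside was H3K4me1 of 5.00-fold and the first outside was H3K4me1 of 4.43-fold. At the 3′ edge these were H3K27ac peaks of 2.70-fold and 2.90-fold.

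Among 2492 protein-coding genes of at least 100 kb, Thrb was in the upper part for acetylation without standing apart. Its 9.79 H3K27ac peaks per 100 kb compared with a median of 2.34 and an upper quartile of 6.27, and 16.0% of these genes had at least as many, Thrb included. For H3K4me1 22.7% had at least as many, for Otx2 38.2%, for Neurod1 24.2% and for H3K4me3 70.2%. The genes most like Thrb over the 5 lists, by Euclidean distance on log2(1 + peaks per 100 kb), were Tnik (0.253), Slc35f1 (0.283), Arhgap10 (0.403), Nlgn1 (0.425) and Rnf150 (0.464), against a median distance of 2.32. Their H3K27ac density ran from 9.26 in Slc35f1 to 10.9 in Nlgn1. H3K27ac density is part of that distance, so its closeness to Thrb follows from how these genes were picked.

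**Figure D3:**
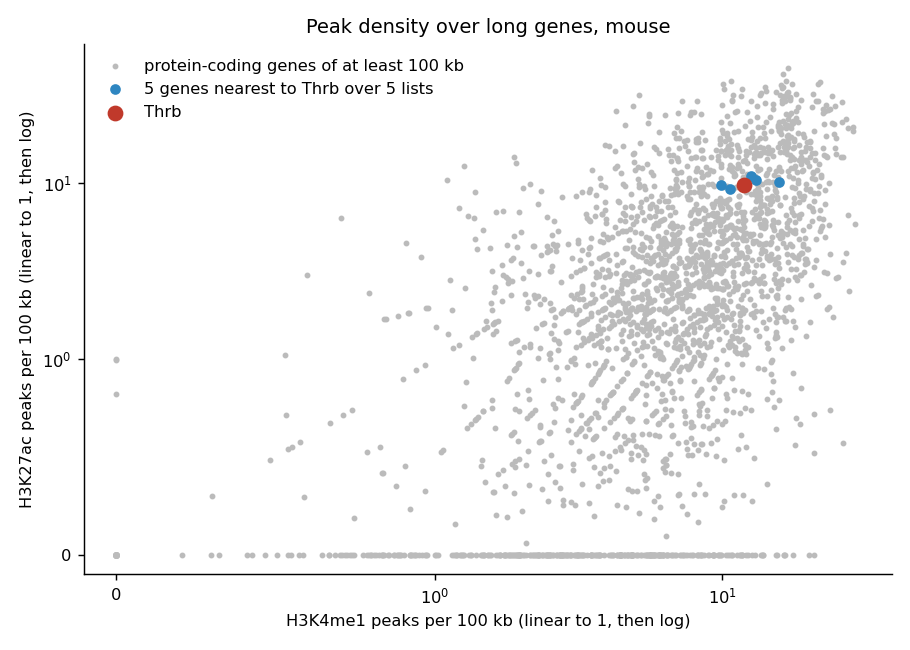
H3K27ac against H3K4me1 peaks per 100 kb for the 2492 mouse protein-coding genes of at least 100 kb (grey), both axes linear to 1 and logarithmic above. Thrb (red, 9.79 and 11.9) and the 5 most similar genes (blue) lie in the upper right of the cloud and inside it. The blue genes were picked for peak densities like those of Thrb.

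The other genes of thyroid hormone action were read for 14 genes of a list. H3K4me3 lay within 1 kb of a start for 10 of 14, beside 56.0% of all protein-coding genes, and Otx2 for 10 of 14, beside 51.0%. H3K27ac lay there for 6 of 14, beside 22.6%, and Neurod1 for 1 of 14, beside 5.76%. Over the whole gene, 7 of 14 held an H3K27ac peak, beside 34.8% of all protein-coding genes. A gene with no H3K27ac peak, as several below, was thus the more common kind among all protein-coding genes. Thra, the other receptor gene, had 7 H3K27ac peaks, 24.7 per 100 kb against 9.79 in Thrb. It also had H3K27ac within 1 kb of a GENCODE start, which Thrb lacked. The 2 Thrb starts with H3K27ac within 1 kb were predicted RefSeq starts. Thra is 28369 bp long and Thrb 377830 bp, so these densities are not on a like footing. Of the retinoid X receptors, Rxra (86518 bp) had 10 H3K27ac peaks, Rxrg (41240 bp), the cone-enriched member, had 1, and Rxrb (6588 bp) had 0.

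The coactivator Ncoa2 held 65 H3K27ac peaks (27.7 per 100 kb). The coactivator Ncoa1 held 14 (6.09 per 100 kb), the corepressor Ncor1 held 9 (6.33 per 100 kb) and Med1 held 0. The deiodinases, which activate or inactivate the hormone, had no H3K27ac peak in Dio1, Dio2 or Dio3, and of these Dio3 alone had H3K4me3. The transporter genes Slc16a10 and Slco1c1 held 0 H3K27ac peaks. Crym, a hormone-binding protein, held 5 and was the gene of these 14 with Neurod1 at a start.

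In 13LGS the same gene was read through its 55 listed elements, 2 at the TSS, 42 in the gene body and 11 intergenic. The gene runs toward lower coordinates there, and with no 13LGS annotation used here, positions are given from the centre of the TSS elements. H3K27ac overlapped 23 of the 55 elements (41.8%), beside 36.6% of the 153 13LGS elements listed for all 4 genes of the list. In the mouse it overlapped 0 of 15, beside 9.52% of 42. Both larger sets include the Thrb elements. For the other genes alone the H3K27ac share was 33.7% of 98 in 13LGS and 14.8% of 27 in the mouse. Most of the 42 mouse elements of the list thus had no H3K27ac peak either, and the 4 that did belonged to the other genes. H3K4me1 overlapped 29 of 55 (52.7%) against 11 of 15 (73.3%), Otx2 10 of 55 (18.2%) against 7 of 15 (46.7%), H3K4me3 6 of 55 (10.9%) against 4 of 15 (26.7%) and Neurod1 2 of 55 (3.64%) against 0 of 15. Over all listed elements, 13LGS against mouse, these shares were 62.1% and 81.0% for H3K4me1, 19.6% and 33.3% for Otx2, 11.8% and 23.8% for H3K4me3 and 7.84% and 4.76% for Neurod1. Without the Thrb elements they were 67.3% and 85.2% for H3K4me1 and 20.4% and 25.9% for Otx2. For H3K4me3 they were then 12.2% and 22.2%, and for Neurod1 10.2% and 7.41%. The order of the Thrb shares with H3K4me3 turned when elements within 1 kb were counted once, to 4 of 24 (16.7%) in 13LGS against 1 of 12 (8.33%). Neighbouring elements often shared a peak, so the 23 acetylated elements stand for 18 peaks, and the 4 mouse elements with H3K4me3 stand for 1. No list overlapped 20 of the 55 elements in 13LGS and 4 of the 15 in the mouse. With the longer list of each target reduced to the length of the shorter by −log10 q, 20 of the 55 elements had H3K27ac in 13LGS and 0 of 15 in the mouse. The species also differ in postnatal day and in libraries per mark, which cannot be told apart from species here. The paper describes the P5 13LGS and P2 mouse samples as stage-matched. It derived the listed elements separately for each species.

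**Figure D4:**
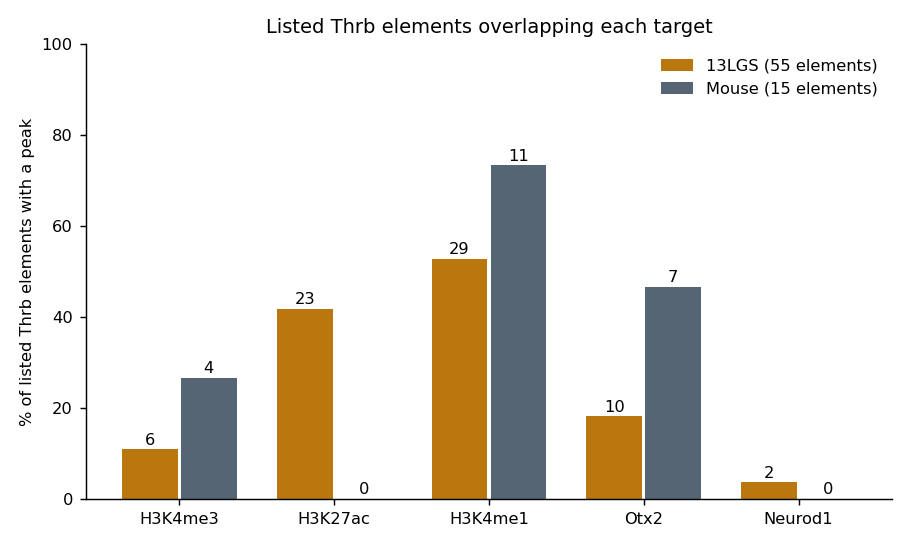
Percent of listed Thrb elements that overlap a peak of each target, in 13LGS (brown, 55 elements) and mouse (grey, 15 elements), with the number of elements above each bar. Acetylation covers 23 elements in 13LGS and 0 in the mouse, and no error is drawn because elements are not replicates.

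The elements listed as TSS in 13LGS carried H3K4me1 alone, at 6.57-fold. All 4 mouse TSS elements had H3K4me3, H3K4me1 and Otx2. TSS is the class given in the list, and without 13LGS gene models its match to the mouse upstream promoter was not tested. An element listed as intergenic, 152 kb before the 13LGS TSS elements, carried H3K4me3, H3K4me1 and Otx2 without H3K27ac. The nearest H3K27ac peak to the 13LGS TSS elements was 71.6 kb away and the nearest H3K4me3 peak 149 kb away, both on the far side from the gene body. That H3K27ac peak overlapped an Otx2 peak of 6.54-fold, 182919831-182920669, which lay on no listed element. Inside the body, H3K4me3 stood at 14.3-fold over Itri2:182672356-182676887, its summit 173 kb downstream of the TSS elements, with a 2.67-fold peak next to it (182671378-182671994). This main peak carried H3K27ac of 3.70-fold, 4.84-fold and 3.21-fold, H3K4me1 of 6.12-fold and Otx2 of 2.55-fold. In 13LGS 40.3% of H3K4me3 peaks overlapped H3K27ac. Whether it marks the start of TRβ2 was not tested, since no 13LGS gene models were used.

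The strongest factor site of the 13LGS gene body lay 20.0 kb beyond that H3K4me3 peak. Otx2 reached 9.0-fold (182651153-182652337, ranking 363 of 27993), Neurod1 10.8-fold (182651754-182652307, ranking 80 of 4658) and H3K4me1 11.2-fold (182649147-182655378). It carried the highest H3K27ac of the gene body, 5.57-fold (182651840-182652696). In 13LGS, 76.7% of Otx2 peaks that overlapped Neurod1 also overlapped H3K27ac. Each species thus had a single site with both factors in the region read, acetylated in 13LGS and without an H3K27ac peak in the mouse, though whether the sites are the same sequence in both genomes was not tested.

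Outside the gene body, Otx2 lay on intergenic elements at 4.42-fold (182526049-182526650), 5.66-fold (182607476-182608123) and 2.70-fold (182627100-182627272). On the other side of the listed TSS, an intergenic element 152 kb away carried H3K4me3 of 9.79-fold, H3K4me1 of 5.03-fold and Otx2 of 3.37-fold. It had no H3K27ac peak, as at the mouse upstream promoter, and whether it marks a Thrb start was not tested. Another H3K4me3 peak, 182997094-182997541, lay near it at 4.82-fold. The elements of highest acetylation were those at the Neurod1 site (5.57-fold), 182696880-182697380 (5.10-fold, with no other mark), 182674098-182674598 (4.84-fold) and the intergenic 182607507-182608007 (4.69-fold).

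The count made in the mouse was repeated from the outermost body element of 13LGS to its TSS elements, 219 kb with 44 elements. The mouse count covered the whole 378 kb gene. Without 13LGS gene models, whether the 13LGS span holds the whole gene was not tested. Of 22 H3K27ac peaks in that span, 15 overlapped an element and 7 did not (31.8%), where the mouse had 37 of 37 without one. Listed elements cover 10.1% of the 13LGS span and 0.864% of the mouse gene, so the counts are not on a like footing. For H3K4me1 16 of 29 peaks overlapped none in 13LGS (55.2%) and 42 of 45 in the mouse (93.3%). The 13LGS acetylation ran from 2.23-fold to 5.57-fold with a median of 3.39, and 11 of 22 reached a −log10 q of 5, beside 39.7% of that list. Its overlap with H3K4me1 was 15 of 22, beside 68.5% of the 13LGS list. Otx2 overlapped 3 of 22, beside 15.5%, Neurod1 1 of 22, beside 3.05%, and H3K4me3 3 of 22, beside 9.03%. Of the 22 peaks, 21 lay between 148 and 206 kb downstream of the TSS elements. The remaining one, 182761333-182761874, was 3.14-fold, lay 86.1 kb downstream under the strongest H3K4me1 peak of the span (182761145-182763693, 12.5-fold) and matched no element.

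**Figure D5:**
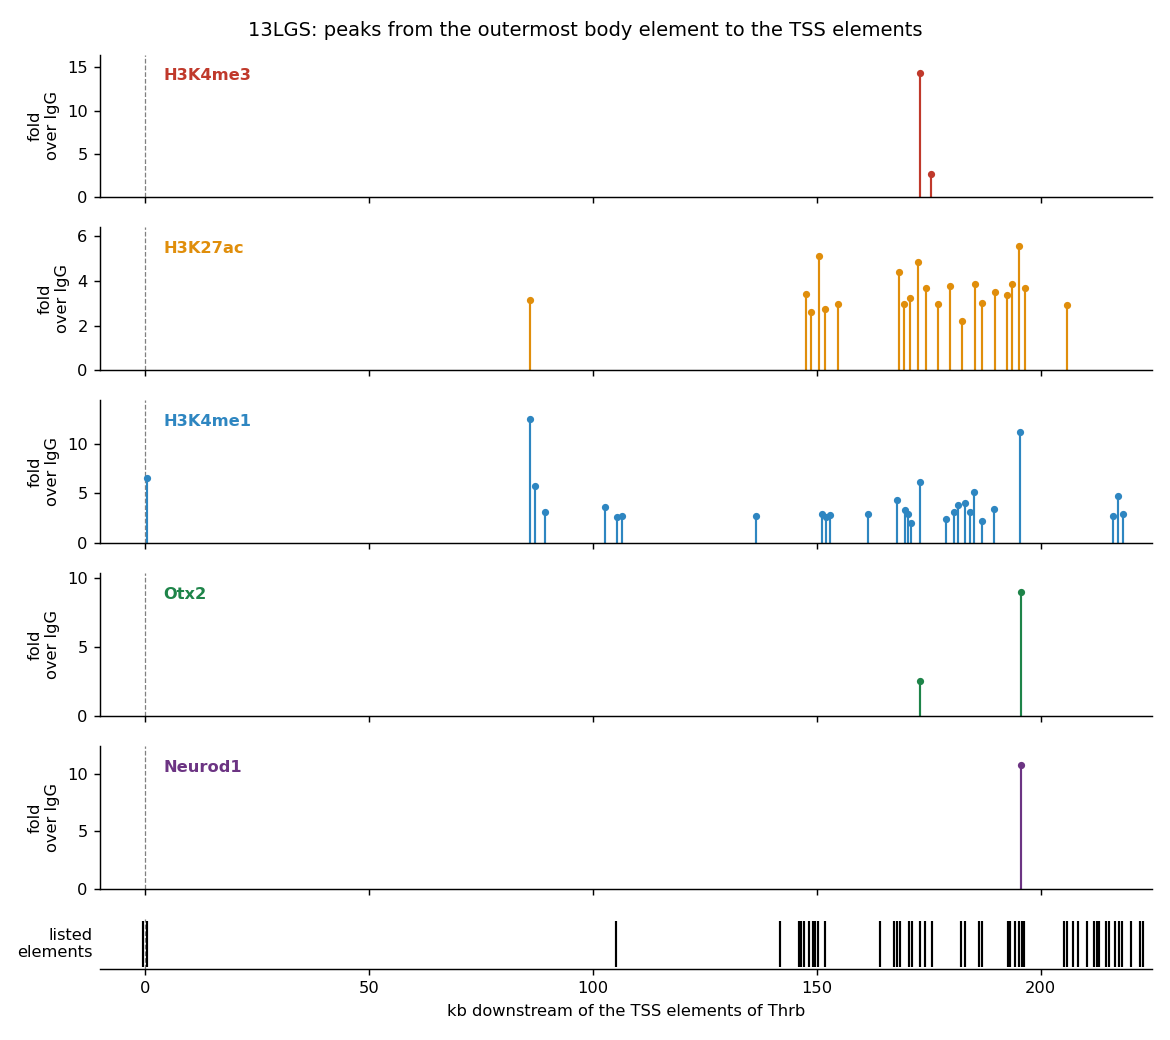
Peaks of the 5 13LGS lists from the outermost body element to the TSS elements of Thrb, with the summit's distance downstream of the TSS elements (kb) on the x axis and the fold over IgG on the y axis, and listed elements in the bottom row. Acetylation gathers from 148 kb on, around the 14.3-fold H3K4me3 peak and the site with 9.0-fold Otx2 and 10.8-fold Neurod1, and the TSS elements at 0 carry H3K4me1 alone.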

How the data were processed

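Peak lists from CUT&RUN of P2 mouse and P5 13LGS retina were used as deposited. Per the labels and methods, the authors trimmed reads (cutadapt 3.5, Trim Galore 0.6.4), aligned them with Bowtie2 to GRCm38 or the 13LGS assembly, removed duplicates with UMI-tools, pooled technical replicates, and ran MACS2 once per target over its libraries, with IgG as control, at q 0.05. In the deposited lists, the authors' fold is the enrichment over IgG at the summit (a ratio), and −log10 q is on a −log10 scale. Blacklisted regions were removed for the mouse only.

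Overlaps of at least 1 bp were counted with pandas 2.3.3 and NumPy 2.4.6, and 3 checks of this code on simulated data gave 0 differences from bedtools 2.31.1. GENCODE vM21 and RefSeq on GRCm38 gave genes, starts and sequence. No test was run, since each target has 1 pooled list per species. The elements come from a supplement of the study, coordinates only. Named peaks were all H3K4me3, Otx2 and Neurod1 peaks in mouse Thrb, the 5 strongest and 3 widest intragenic H3K27ac peaks, those on Otx2 or Neurod1 and the 3 nearest to an element, plus 13LGS elements with H3K4me3, Otx2 or Neurod1 or of high acetylation, neighbouring genes, the thyroid list and the 5 most similar long genes. Other peaks named as context were chosen after their values were seen. Some genes of the thyroid list are not reported here. Members and lists were chosen with earlier results of these data known. Alternatives covered the q and fold limits, overlap, merging, element size and gene length.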

Additional observations from a re-analysis of the deposited data

How the results depend on the processing

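With 1 pooled list per target there is no replicate to leave out, and depth is unknown, so a small difference in fold or a missing peak cannot be weighed against error. No paired analysis was possible because the lists carry no replicates. Of 77 alternative values for 22 results, 68 stayed within set limits. The limit was 1.5 times for counts, densities and the place among long genes, and the 95% interval for shares. For species differences it combined the 95% intervals of both shares. These intervals treat peaks and elements as independent, which they are not, and they are wide. At a −log10 q of at least 5, the H3K27ac difference fell from 41.8 to 21.8 percentage points and still stayed within its limit. At a −log10 q of at least 5, 8 intragenic H3K27ac peaks of mouse Thrb remained, 8 overlapped no element and 87.5% of them overlapped H3K4me1. The H3K4me1 share over the whole H3K27ac list was not computed at that limit. There, 12 elements of 13LGS had H3K27ac. With an overlap of at least 250 bp, 14 elements of 13LGS had H3K27ac, 6 had Otx2 and 1 had Neurod1. With elements within 1 kb counted once, the difference in share with H3K4me3, 13LGS minus mouse, went from -15.8 to 8.33 percentage points. With 100 kb flanks, the 3′ flank had 1 H3K27ac peak per 100 kb instead of 1.6. The number without an element was 37 with elements extended by 1 kb and 31 with 5 kb. The share of long genes with at least the acetylation of Thrb ran from 13.4% to 22.5%.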
